A study of Caenorhabditis elegans with 6 samples.

Results

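The cytochrome P450 genes of Caenorhabditis elegans were followed on 6 arrays of whole worms of mixed stages, 3 from worms carrying tdp-1(ok803) and 3 from wild-type worms. The members are the genes named cyp followed by a family number and a letter, together with daf-9, that had a probe set carrying a single gene symbol. There were 74 such genes of 17118 genes measured, and each was read from its brightest probe set, by the mean over the 6 arrays. The mutant was outcrossed and carries ok803, which removes the function of tdp-1, the worm counterpart of the gene for the RNA-binding protein TDP-43. The controls were wild-type N2 worms grown under the same standard conditions. The allele is carried by all tissues of the animal, and RNA was taken from whole worms, so fewer cells of a type and less RNA per cell cannot be told apart in any value given here.

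Cytochrome P450s are haem enzymes that insert oxygen into lipids, steroids and foreign compounds, drawing electrons from a reductase partner. In worms many of them sit in the intestine, where the cyp-35 genes are known for their induction by foreign compounds and their ties to fat storage. A few have defined endogenous work: DAF-9 makes the dafachronic acids that bind the nuclear receptor DAF-12, and other members make eicosanoids from fatty acids or supply lipids to the eggshell.

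Of the 74 genes, 42 lie on chromosome V in the WBcel235 gene table, and 3 (cyp-34A3, cyp-31A1 and cyp-29A1) are annotated there as pseudogenes. The table holds 81 P450 symbols, and 7 of them, cyp-13A12 among them, had no probe set with a single symbol and were not analysed here. Values are on the log2 scale, so a difference of 1 is a 2-fold change, and each difference is the tdp-1(ok803) mean minus the wild-type mean. A brightness compares arrays for 1 probe set, not genes with each other. The mean signal lay under the median of all probe sets for 48 members and under their 25th percentile for 20, and whether such probe sets were above background was not assessed. Of the probe sets used, 11 end in _s_at or _x_at, the array maker's mark for probes that can match related sequences, as for cyp-32A1, cyp-35C1 and cyp-31A2.

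The targeted gene followed the labels: tdp-1 had log2 values of 4.77, 4.78 and 5.47 in tdp-1(ok803) and 8.86, 9.22 and 8.85 in wild type, and fell by 3.97 (limma adjusted p = 0.000815). The position of these probes against the deletion was not examined. Array medians ran between 5.41 and 5.52. Wild-type replicate 3 stood apart: 50 probe sets were more than 1 log2 unit higher there than on every other array, against 0 to 3 probe sets for each of the other 5 arrays. The arrays also differed in the 3' minus 5' difference of the actin and Gapdh control probe sets, which reflects RNA integrity and how far labelling ran from the 3' end. It averaged 3.80 ± 0.64 in tdp-1(ok803) and 3.11 ± 0.88 in wild type (SD, n = 3 each). Values without wild-type replicate 3, or within the arrays of smaller and of larger 3' minus 5' difference, are given beside some of the results.

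No P450 gene differed between the genotypes at an adjusted p under 0.05. The smallest limma adjusted p of the 74 was 0.281, for cyp-25A1, and the largest was 0.999. Over all 22548 probe sets 0.0577% were called, 0.031% higher and 0.0266% lower, so the count of 0 among 74 genes does not stand apart from that background. At an unadjusted p under 0.05 there were 4 P450 genes, 1 higher and 3 lower in tdp-1(ok803), which is 5.41% of the members. Over all probe sets it was 6.97%, with 3.58% higher and 3.38% lower. The 3 arrays of each genotype did not overlap for 8 members (10.8%), 3 higher and 5 lower, against 11.6% of probe sets, 6.8% higher and 4.84% lower.

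The differences were small. The median over the 74 genes was -0.02, against 0.00 over all probe sets, and 57 genes (77.0%) lay within 0.25 log2 units of 0, as did 78.9% of probe sets. The mean was higher in tdp-1(ok803) for 30 genes and lower for 44. The share that was higher, 40.5%, compares with 50.5% of all probe sets. For 66 genes (89.2%) the 95% interval of the difference stayed within 1 log2 unit in either direction, against 93.3% of probe sets. For these 66 a 2-fold difference in signal therefore lay outside the interval. Dim probe sets were among them, and whether those were above background was not assessed. The intervals of the other 8 reached that size, and 7 of them belong to the cyp-35 family.

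**Figure D1:**
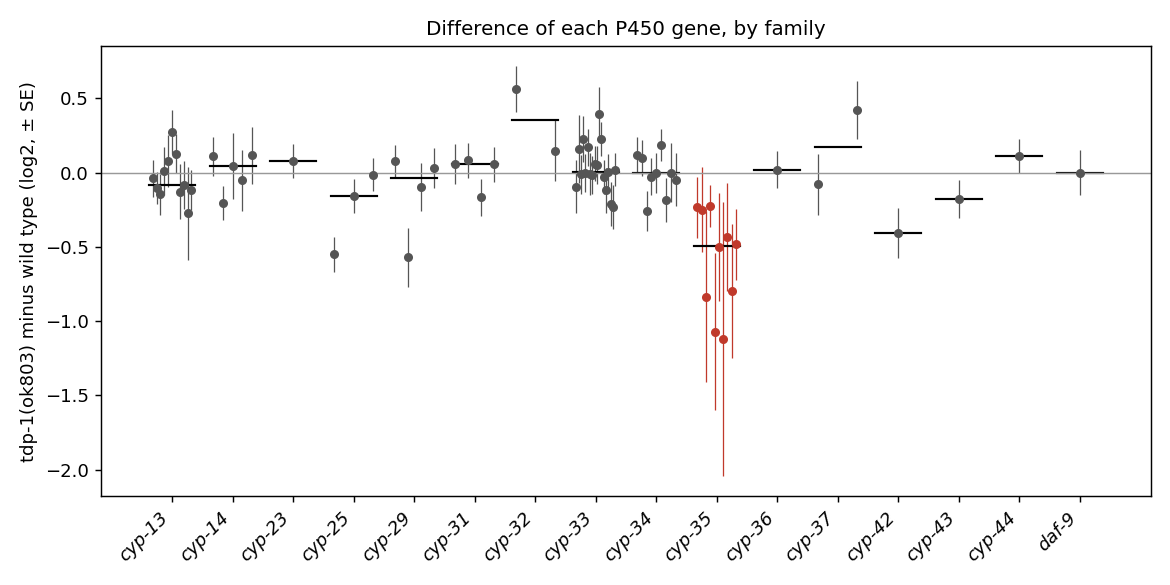
Difference of each of the 74 P450 genes, tdp-1(ok803) minus wild type in log2 units, with 1 point per gene, bars of 1 SE and a horizontal line at the family median, grouped by family. The cyp-35 genes, in red, lie between -1.12 and -0.22, with the longest bar at cyp-35B2 (SE 0.92), and no other family has every member below 0 apart from cyp-25 and families of 1 gene.

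The lowest differences and the widest errors were in the cyp-35 family, whose 10 members were all lower in tdp-1(ok803), with a median of -0.49 (range -1.12 to -0.22) and limma adjusted p between 0.773 and 0.913. Over all probe sets 49.5% were lower in the mutant. The family was singled out after its values were seen, so its count and median describe these arrays and were not tested as a set. The values per array show where the difference lay.

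cyp-35B2 had log2 values of 4.42, 4.001 and 4.40 in tdp-1(ok803) and 3.90, 4.35 and 7.93 in wild type. Its values on 5 arrays fell in 1 narrow band, and wild-type replicate 3 was 11.4-fold above the highest of them. The difference between the genotypes was -1.12 ± 0.92 (SE) with a 95% interval of -3.26 to 1.02. cyp-35A3, of the xenobiotic-inducible cyp-35A group tied to fat storage, had 6.56, 6.16 and 6.20 in tdp-1(ok803) and 6.26, 6.46 and 8.70 in wild type. cyp-35A5, its relative, had 5.55, 4.98 and 5.02 in tdp-1(ok803) and 5.42, 5.70 and 7.64 in wild type. In both genes the first 2 wild-type arrays lay within or next to the mutant range, and replicate 3 lay 4.40-fold and 3.82-fold above every other array.

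cyp-35C1 had 8.74, 8.39 and 8.68 in tdp-1(ok803) and 8.70, 8.90 and 10.61 in wild type. Its second probe set read 4.99, 5.07 and 4.90 in tdp-1(ok803) and 5.38, 5.28 and 7.52 in wild type. Both probe sets were highest on wild-type replicate 3, by 1.71 and 2.15 log2 units over every other array, with differences of -0.80 and -1.08 between the genotypes. They differed in overlap: the groups overlapped on the first and not on the second, where the other 2 wild-type arrays also lay above the mutant arrays. Without wild-type replicate 3 the differences were -0.20 and -0.34 (limma adjusted p = 0.998 and 0.874). cyp-35B1, also known as dod-13 and listed among genes downstream of DAF-16, had 3.69, 3.73 and 3.83 in tdp-1(ok803) and 3.81, 3.72 and 5.23 in wild type. cyp-35B3 had 4.33, 4.42 and 4.83 in tdp-1(ok803) and 4.39, 4.62 and 5.87 in wild type. On replicate 3 these genes were 2.63-fold and 2.05-fold above the next array, while the other 2 wild-type arrays fell among the mutant values.

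The remaining 4 genes were also highest on wild-type replicate 3, by smaller steps, and differed in the order of the other arrays. cyp-35D1, which takes part in the metabolism of the anthelmintic thiabendazole, had 4.95, 4.97 and 5.01 in tdp-1(ok803) and 5.16, 5.17 and 6.06 in wild type. It was the member of this family whose groups did not overlap, with a difference of -0.48 ± 0.24 (SE, limma adjusted p = 0.773). cyp-35A2 had 8.84, 8.73 and 8.50 in tdp-1(ok803) and 8.59, 8.57 and 9.65 in wild type. cyp-35A1 had 3.44, 3.66 and 3.69 in tdp-1(ok803) and 3.56, 3.64 and 4.30 in wild type. Both were highest on wild-type replicate 3, by 0.82 and 0.60 log2 units. cyp-35A4 had 4.32, 4.33 and 4.58 in tdp-1(ok803) and 4.66, 4.45 and 4.80 in wild type, with replicate 3 just 0.14 above the next array.

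**Figure D2:**
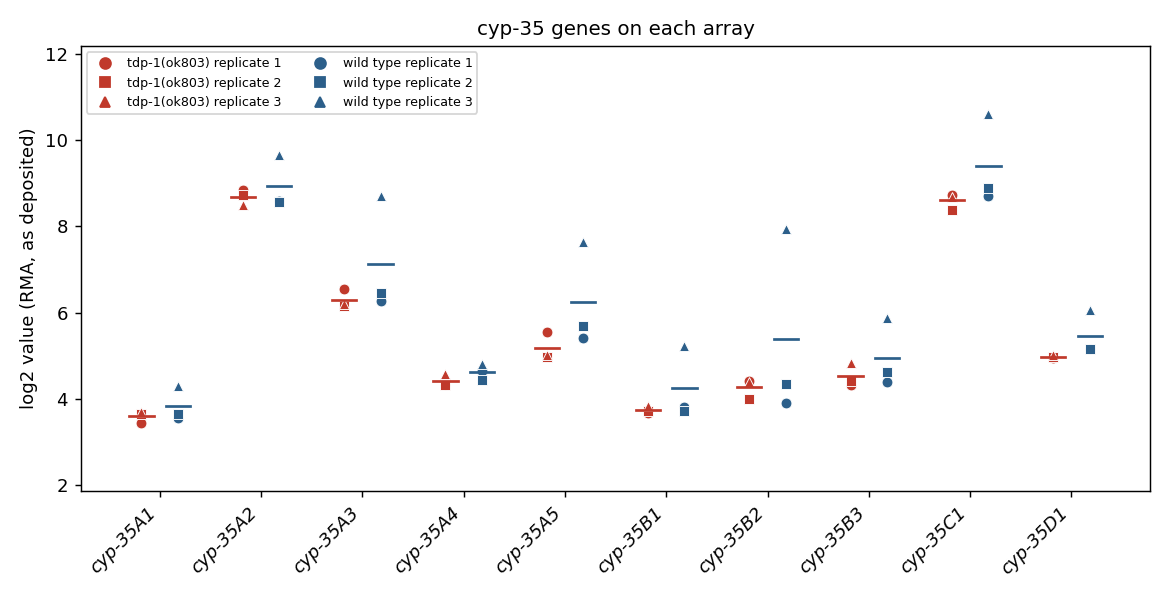
Log2 value of each cyp-35 gene on the 6 arrays, tdp-1(ok803) in red left of wild type in blue, with marker shape for the replicate and a line at the mean of 3. Wild-type replicate 3, the blue triangle, is the highest point for all 10 genes, with the widest gap at cyp-35B2, at 7.93 there and at most 4.42 on the other arrays.

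All 10 genes, and all 11 probe sets of the family, were highest on wild-type replicate 3, against 17.3% of all probe sets. A margin of more than 1 log2 unit over every other array was reached by 6 of the genes, against 0.222% of probe sets. Of the 10 probe sets with the largest margin on that array, 5 belong to the cyp-35 family. Among the other P450 genes, 10 of 64 were highest there (15.6%), 0 passed 1 log2 unit, and the largest margin was 0.68, for cyp-13B1. The median SD between replicates over the 10 cyp-35 genes was 0.181 in tdp-1(ok803) and 0.823 in wild type (n = 3 arrays each). In the 64 other genes the median SD was 0.118 in tdp-1(ok803) and 0.167 in wild type.

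Without wild-type replicate 3 the family median was -0.03 (range -0.38 to 0.15), with 3 genes higher and 7 lower in tdp-1(ok803) and a smallest limma adjusted p of 0.998. Expressed as the mean deviation from each gene's 6-array mean, the family stood at -0.25, -0.39 and -0.25 in tdp-1(ok803) and at -0.29, -0.17 and 1.35 in wild type. The first 2 wild-type arrays thus lay within or just above the mutant range. Over all P450 genes, the median without that array was -0.02 (range -0.58 to 0.68), 0 differed by more than 1 log2 unit, and 0 were called where 0.0976% of all probe sets were. At an unadjusted p under 0.05 there were 5 (6.76%, against 5.32% of probe sets). With it in the fit, 2 genes, cyp-35B2 and cyp-35A5, differed by more than 1 log2 unit.

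**Figure D3:**
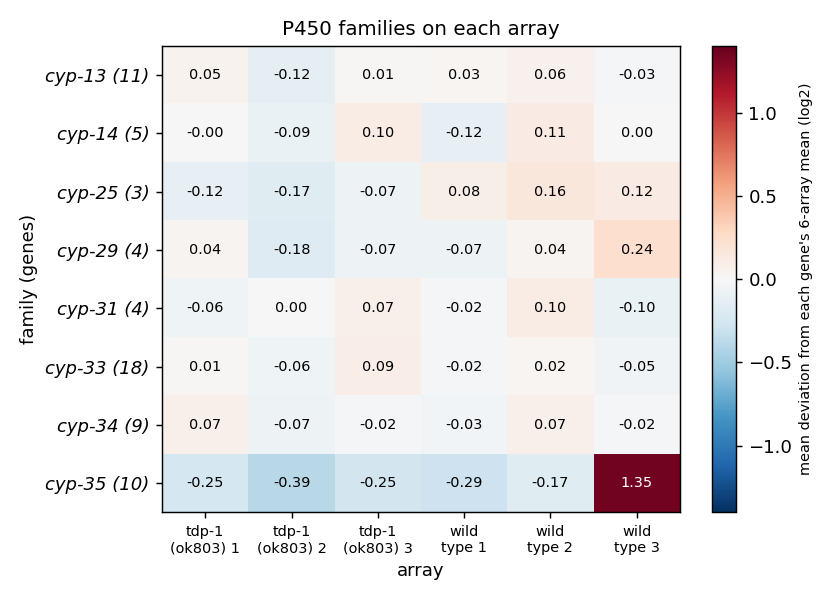
Mean deviation of each P450 family with at least 3 genes from its genes' 6-array means, in log2 units, with families in rows (number of genes in brackets) and arrays in columns, tdp-1(ok803) left of wild type. The cell for cyp-35 on wild-type replicate 3, at 1.35, is the darkest, and the next highest on that array is cyp-29 at 0.24.

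**Figure D4:**
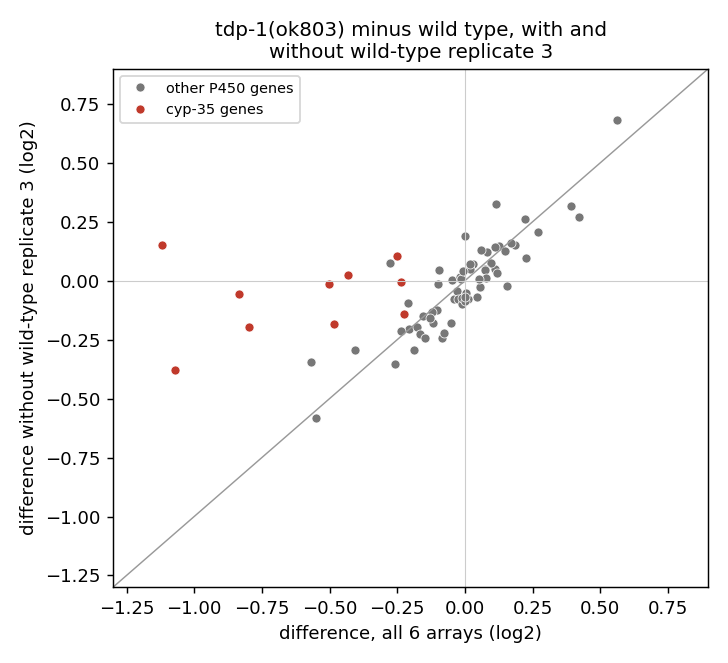
Difference of each P450 gene, tdp-1(ok803) minus wild type in log2 units, with all 6 arrays (horizontal axis) and without wild-type replicate 3 (vertical axis), with the line of equality. The cyp-35 genes, in red, move up to between -0.38 and 0.15. Of the other genes, cyp-13B1 moves as far as some of them, at -0.28 with all arrays and 0.07 without replicate 3.

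Wild-type replicate 3 also had the smallest 3' minus 5' control difference, 2.52. Wild-type replicate 1, at 2.69, was close to it on that measure and stood at -0.29 on the cyp-35 mean. Within the 3 arrays of smaller difference (tdp-1(ok803) replicate 2, wild-type replicates 1 and 3) the family median was -0.75. Within the 3 of larger difference it was -0.06 (range -0.42 to 0.09). In a fit with that control difference as a second term it was -0.32. The part of RNA integrity in the high values of replicate 3 was not tested beyond these values.

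The cyp-35 genes are neighbours only in part. cyp-35A5, cyp-35B1, cyp-35B2 and cyp-35B3 lie in a run of 10 members on chromosome V with cyp-34A5 to cyp-34A10, with at most 5 protein-coding genes between neighbouring members in the WBcel235 gene table. On wild-type replicate 3 the margins of these 4 were 1.04 to 3.51, while those of the 9 measured cyp-34 genes ran from -0.42 to 0.19. cyp-35C1 and cyp-35D1 had no other member within that distance and were high on the same array.

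Outside the P450 genes, 43 probe sets were also more than 1 log2 unit above every other array on wild-type replicate 3, and those named here were chosen after their values were seen. The largest margin of all was that of the infection response gene irg-5, which had 7.47, 7.56 and 6.89 in tdp-1(ok803) and 7.68, 6.83 and 11.28 in wild type. The glutathione S-transferase gene gst-5 had 8.08, 7.80 and 7.35 in tdp-1(ok803) and 7.92, 7.45 and 10.09 in wild type. Conjugating and detoxifying enzyme genes were present among the 43, with 3 of 41 probe sets of gst genes, 4 of 68 of ugt genes and 1 of 7 of fmo genes. Of the irg genes, 2 of 8 probe sets were among them. Over all probe sets the share past that margin was 0.222%. For comparison, 7 of the 11 cyp-35 probe sets passed the same margin.

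Among the other 64 P450 genes, 30 were higher and 34 lower in tdp-1(ok803), with a median of 0.00 and a range of -0.57 to 0.56. The lower genes began with cyp-25A1, at 5.26, 5.197 and 5.31 in tdp-1(ok803) and 5.71, 5.96 and 5.75 in wild type. All 3 mutant arrays lay below all 3 wild-type arrays, and the mutant spread was small. The difference was -0.55 ± 0.12 (SE, 95% interval -0.83 to -0.27), a 1.47-fold difference in size, and did not pass the adjusted test (limma adjusted p = 0.281). It was -0.58 without wild-type replicate 3, and -0.53 and -0.68 within the arrays of smaller and of larger 3' minus 5' difference. The other 2 members of the family, cyp-25A2 and cyp-25A6, differed by -0.16 and -0.01.

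cyp-29A2 had 6.25, 6.14 and 5.99 in tdp-1(ok803) and 6.46, 6.48 and 7.15 in wild type. Its groups did not overlap, but wild-type replicate 3 stood 0.67 above the next array. The difference of -0.57 ± 0.20 (SE, limma adjusted p = 0.606) was -0.34 without that array, a change of over 1.5 times. cyp-42A1 had 4.31, 4.49 and 4.19 in tdp-1(ok803) and 4.84, 4.41 and 4.97 in wild type, and these groups overlapped. Its difference was -0.41 ± 0.17 on this probe set and -0.17 on a second one. cyp-14A2 was lower in tdp-1(ok803) by a small step without overlap, at -0.21 ± 0.11, and cyp-34A2 differed by -0.26 ± 0.13 with overlap.

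On the higher side, cyp-32A1 had 6.06, 5.73 and 5.92 in tdp-1(ok803) and 5.16, 5.29 and 5.58 in wild type. The groups did not overlap, with a difference of 0.56 ± 0.15 (SE, limma adjusted p = 0.421). Its second probe set did not show this, at 5.45, 5.28 and 5.13 in tdp-1(ok803) and 5.26, 5.65 and 5.17 in wild type, a difference of -0.07 ± 0.16. The first of these probe sets is one that can match related sequences. cyp-37B1 had 5.58, 5.29 and 5.78 in tdp-1(ok803) and 5.45, 5.11 and 4.83 in wild type, with a difference of 0.42 ± 0.19 and overlap between the groups. Wild-type replicate 3 was its lowest array, and without it the difference was 0.27. It was 0.15 and 0.57 within the arrays of smaller and of larger 3' minus 5' difference, where cyp-32A1 stood at 0.36 and 0.70 on its first probe set.

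The cyp-33 family, with 18 genes the largest, was evenly divided, with 9 higher and 9 lower in tdp-1(ok803) and a median of 0.00. cyp-33C8 had 6.12, 6.17 and 6.21 in tdp-1(ok803) and 5.82, 5.99 and 6.02 in wild type, a difference of 0.22 ± 0.11 without overlap. cyp-33C7 was at 0.39 ± 0.19, cyp-33C11 at 0.22 and cyp-33C2 at 0.17, all with overlap. Without wild-type replicate 3, cyp-33C11 was at 0.10. The cyp-13 genes had a median of -0.09 over 11 genes, 4 higher and 7 lower. Within them, 8 cyp-13A genes that neighbour each other on chromosome II were 4 higher and 4 lower, led by cyp-13A5 at 0.27 and cyp-13A6 at 0.13. The 9 cyp-34 genes had a median of -0.01, and cyp-34A6, at 0.19 ± 0.11, was the one without overlap. The 5 cyp-14 genes had a median of 0.04.

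**Figure D5:**
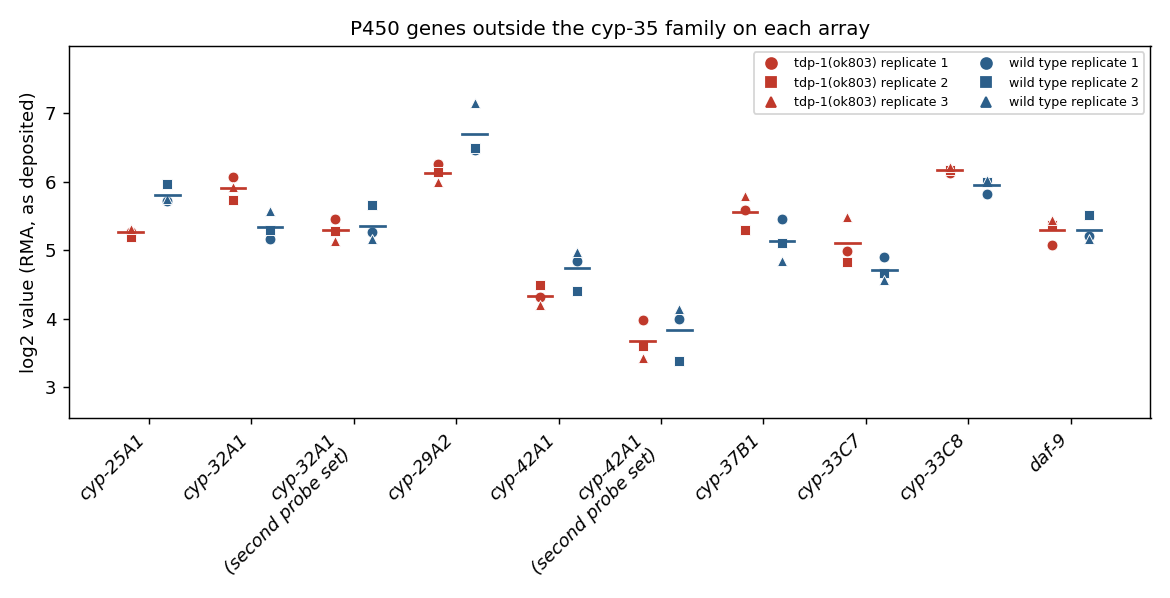
Log2 values on the 6 arrays of P450 genes outside the cyp-35 family, with second probe sets of cyp-32A1 and cyp-42A1, tdp-1(ok803) in red left of wild type in blue and a line at each mean of 3. For cyp-25A1 the red points lie between 5.197 and 5.31, below the blue points at 5.71 to 5.96, and the 2 probe sets of cyp-32A1 differ from each other in direction.

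The members with defined endogenous substrates differed by less than 0.25 log2 units in the main fit. daf-9, which makes dafachronic acids, had 5.07, 5.37 and 5.44 in tdp-1(ok803) and 5.21, 5.51 and 5.16 in wild type. The difference was 0.00 in size with an SE of 0.15, its 95% interval ran from -0.35 to 0.35, and it was 0.18 and -0.25 within the arrays of smaller and of larger 3' minus 5' difference. A 2-fold difference of daf-9 in either direction was outside that interval. cyp-33E2 and cyp-29A3, which make eicosanoids from eicosapentaenoic acid, differed by -0.23 ± 0.15 and -0.10 ± 0.16. Without wild-type replicate 3 they stood at -0.21 and -0.01. Within the arrays of smaller and of larger 3' minus 5' difference, cyp-33E2 stood at -0.33 and -0.31, and cyp-29A3 at -0.37 and 0.04. With the control difference as a second term they stood at -0.36 and -0.18 (limma unadjusted p = 0.024 and 0.303, adjusted p = 0.383 and 0.755). The 95% interval of cyp-33E2 in the main fit was -0.58 to 0.11. cyp-33E2, known from the pharynx, had 5.40, 5.25 and 5.62 in tdp-1(ok803) and 5.46, 5.82 and 5.70 in wild type, with overlap.

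cyp-31A2 and cyp-31A3, a nearly identical pair needed for lipids of the eggshell, had small differences of opposite sign. cyp-31A2 had 8.85, 8.996 and 8.98 in tdp-1(ok803) and 8.73, 8.91 and 8.94 in wild type. cyp-31A3 had 7.74, 7.83 and 7.79 in tdp-1(ok803) and 7.88, 8.15 and 7.83 in wild type, which did not overlap. The differences were 0.08 ± 0.12 and -0.17 ± 0.13, and signal from one gene of this pair can reach the probes of the other. cyp-36A1, which acts downstream of HIF-1, differed by 0.02 ± 0.13. cyp-13A7, a gene induced by rifampicin, differed by -0.13 ± 0.19. cyp-34A9, also known as dod-16, differed by -0.05 ± 0.18. cyp-44A1, of the mitochondrial type, had 8.73, 8.79 and 8.83 in tdp-1(ok803) and 8.73, 8.73 and 8.55 in wild type, a difference of 0.11 ± 0.11, or 0.05 without wild-type replicate 3.

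In the fit with that control difference as a second term, 0 P450 genes were called, where 0.111% of probe sets were, and the smallest adjusted p was 0.109, again for cyp-25A1, at -0.64. At an unadjusted p under 0.05 there were 8 members in this fit (10.8%, against 10.7% of all probe sets), and the median moved to -0.09, against -0.03 over all probe sets.

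Genes that work with the P450s were taken from lists of redox partners, the dafachronic acid pathway, xenobiotic and lipid regulators, the EGL-9 and HIF-1 pathway and epoxide hydrolases. Of 31 genes named, 28 were measured. 0 were called in limma, against 0.0577% of all probe sets, with a smallest adjusted p of 0.407. At an unadjusted p under 0.05 there were 6 (21.4%, against 6.97%). The median difference was 0.05, with 16 higher and 12 lower in tdp-1(ok803), and the groups did not overlap for 6, against 11.6% of all probe sets.

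nhr-8, a nuclear receptor needed for resistance to foreign compounds, had 7.21, 7.09 and 7.20 in tdp-1(ok803) and 6.60, 6.64 and 5.90 in wild type. It was higher in the mutant without overlap, by 0.79 ± 0.20 (SE, limma adjusted p = 0.407), and the lowest value was that of wild-type replicate 3, without which it was 0.55. skn-1, a transcription factor of the oxidative and xenobiotic stress response, had 9.53, 9.68 and 10.04 in tdp-1(ok803) and 9.25, 9.38 and 9.22 in wild type. Its difference was 0.47 ± 0.15 (SE, limma adjusted p = 0.558), again without overlap. Its other 2 probe sets stood at 0.35 and -0.09, and the mean of the 3 at 0.24. The other 8 regulators lay between -0.44 and 0.10.

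Around daf-9, the Rieske oxygenase gene daf-36, which acts before it in dafachronic acid synthesis, had 6.64, 6.37 and 6.42 in tdp-1(ok803) and 6.23, 6.05 and 6.18 in wild type. The receptor gene daf-12 had 6.79, 6.94 and 7.28 in tdp-1(ok803) and 7.42, 7.26 and 7.43 in wild type. The differences were 0.32 ± 0.12 for daf-36 and, with overlap, -0.37 ± 0.15 for daf-12 (limma adjusted p = 0.643 and 0.694). The other 2 probe sets of daf-12 did not show this, at 0.03 and 0.05, and the mean of its 3 was -0.10. In the HIF-1 list, swan-1 differed by 0.40 and cysl-1, a regulator upstream of EGL-9, by -0.31 (limma adjusted p = 0.606 and 0.638). Second probe sets stood at -0.19 for swan-1, opposite in sign to the first, and at -0.51 for cysl-1. emb-8, the NADPH-P450 reductase that supplies electrons to microsomal P450s, had 7.47, 7.43 and 7.06 in tdp-1(ok803) and 7.77, 7.47 and 7.75 in wild type, a difference of -0.34 ± 0.16 (limma adjusted p = 0.742). The epoxide hydrolase genes ceeh-1 and ceeh-2 differed by 0.14 and 0.03.

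Tissue markers were read beside these values. All 14 intestinal markers were measured, and the sum of their log2 values ran from 117.2 to 120.1 in tdp-1(ok803) and from 114.2 to 119.8 in wild type. Their mean deviation on wild-type replicate 3 was 0.07, where the cyp-35 genes stood at 1.35. Of 14 hypodermal and moulting markers, 13 were measured and 12 were lower in the mutant. The sums were 94.1 to 97.3 in tdp-1(ok803) and 100.2 to 108.6 in wild type. In limma 0 of them were called (smallest adjusted p = 0.060), and 9 had an unadjusted p under 0.05, against 6.97% of all probe sets. Their mean deviation was 0.49, -0.04 and 0.61 on wild-type replicates 1, 2 and 3, where the cyp-35 genes stood at -0.29, -0.17 and 1.35. Wild-type replicate 3 was the highest array for both sets. The 5 measured of 6 yolk genes summed to 68.0 to 69.9 in tdp-1(ok803) and 68.5 to 69.5 in wild type. The 14 germline markers summed to 135.2 to 138.6 in tdp-1(ok803) and 135.1 to 136.8 in wild type. The 14 neuronal markers summed to 93.4 to 95.4 in tdp-1(ok803) and 95.2 to 99.7 in wild type, and the 14 muscle markers to 133.5 to 134.9 in tdp-1(ok803) and 132.0 to 141.3 in wild type. Of the neuronal markers 10 were lower and 4 higher in the mutant, with 4 at a limma unadjusted p under 0.05. Of the muscle markers 11 were lower and 3 higher, with 2 at that p. The intestinal and the germline markers were each 7 higher and 7 lower, with 1 and 3 at that p. The part of tissue or stage composition in the P450 values was not tested.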

How the data were processed

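Total RNA of 3 samples per genotype was labelled, per the labels' protocols, by in vitro transcription from the 3' end for Affymetrix arrays of the worm genome. The values used are the deposited log2 signals of each probe set, made by the authors with RMA and Partek per the submitters' processing notes, with no version. Signal over background cannot be read from these values, and RMA and cross-hybridising probes can shrink differences of dim or near-identical genes. The number of arrays limits the precision.

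After setting aside 77 control probe sets, tdp-1(ok803) was compared with wild type over 22548 probe sets by limma 3.58.1 in R 4.3.3 (lmFit, eBayes, genotype alone, two-sided). P-values were adjusted over the whole table by Benjamini-Hochberg, at a threshold of 0.05. The test was also run on simulated data, with noise drawn independently for each probe set and array. That run held no array standing apart from the others, so it does not cover such a case. Probe sets with 1 symbol numbered 20766, with several 887 and not listed 895. Gene IDs matched the WBcel235 gene table for all 74 members. P450 probe sets with several symbols (2) were left out.

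The members and lists were chosen with earlier results of these data known. Named genes are daf-9, any called member, up to 10 members per direction and 6 pathway genes with the smallest p, genes of known role and the 4 members with the largest replicate SD. cyp-25A2, cyp-25A6, cyp-13B1, cyp-35B3, emb-8, ceeh-1, ceeh-2, the pseudogenes and the genes outside the P450s on wild-type replicate 3 fall outside that rule and were chosen after their values were seen. The labels say that replicates are biological. Same-numbered samples did not deviate together (correlations of 0.05, -0.61 and -0.46), so numbers were not used as pairs. Alternatives were other moderation, normalization, filters, weights, thresholds, the mean of all probe sets, the 3' minus 5' control value as a covariate, a replicate block and leaving out each array. Figures were drawn with matplotlib 3.10.9.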

Additional observations from a re-analysis of the deposited data

How the results depend on the processing

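No P450 gene was called under any alternative except array weights, and no result reversed, where a change of sign counts if either setting called the result. Array weights called 16 P450 genes (21.6%) and 9 pathway genes, where 27.9% of all 22548 probe sets were called. Of the 74 P450 genes, 23 had an unadjusted p under 0.05 in that fit, against 41.6% of all probe sets. The weights were 4.16, 0.542 and 0.394 for the tdp-1(ok803) arrays and 7.91, 0.267 and 0.533 for the wild-type arrays. Thus 1 array per genotype carried most of that fit. The covariate gave 8 genes at an unadjusted p under 0.05 (10.8%, against 10.7% of all probe sets) and a P450 median of -0.090. Averaging the probe sets of a gene gave 2 P450 genes at that p, which 6.82% of all 18900 averaged entries reached. Without probe sets under the 30th percentile, 51 genes were left, 16 of them higher in tdp-1(ok803). Their median was -0.086, against -0.013 over all probe sets kept, and most of the cyp-35 genes were among the 51. The filter used the mean over all 6 arrays, to which the high values of wild-type replicate 3 contribute. One of the genes kept, cyp-35B2, had 7.93 there and at most 4.42 on the other arrays, so this median is not independent of that array. Within the arrays of smaller 3' minus 5' difference the P450 median was -0.072, and -0.035 over the 64 genes outside cyp-35 (26 higher, 38 lower), against 0.001 over all probe sets. Within those of larger difference these medians were -0.021 and -0.009 (31 higher, 33 lower), against -0.022 over all probe sets. Over all 6 arrays the median outside cyp-35 was 0.00 in size. With an array left out in turn, P450 genes called numbered 0 to 0, where 0.0177% to 0.43% of all probe sets were called. P450 genes at an unadjusted p under 0.05 numbered between 2 and 7, where 4.22% to 13.3% of all probe sets reached that p. Those higher in the mutant numbered between 28 and 39, and those without overlap between 13 and 21. The last is 17.6% to 28.4% of members, against 17.1% to 33.6% of all probe sets, since fewer arrays overlap less by construction. The P450 median ran from -0.076 to 0.016, and the cyp-35 median from -0.72 to -0.03 (-0.03 without wild-type replicate 3). Pathway genes called ran from 0 to 0, against the same 0.0177% to 0.43% of all probe sets. The replicate block, whose numbers do not pair the samples, gave 0 P450 genes called and 3 at an unadjusted p under 0.05. Over all probe sets it called 5, and 4.04% had an unadjusted p under 0.05. Of 563 values of single genes under alternatives, 549 kept their side of the threshold and 14 passed it, all under array weights. The wide errors of the cyp-35 genes rest on 1 array, and 3 arrays per genotype leave 2-fold differences of 8 genes within their intervals.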
